A study of Mus musculus with 4 samples.

Results

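The set described here holds 38 mouse genes that build the junctions, the keratin skeleton and the identity of simple epithelium, measured in RNA from lamina propria lymphocytes (LPLs). The genes were listed by name with earlier results of these data known, and no measured value enters the rule. They comprise 5 keratins, 3 adhesion molecules, 8 claudins, 7 other tight junction genes, 5 desmosome genes, 2 hemidesmosome integrins, 4 surface and brush border genes and 4 transcription factors. All 38 were on the array, through 46 probes among 39429, and 20619 named genes in all were on it.

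All mice were C57BL6, had been exposed to dextran sulfate sodium (DSS), which damages the epithelium of the colon, and were sampled on day 10. The 4 groups were Stat4-/- mice given DSS and LIF, Stat4-/- mice given DSS, wild type mice given DSS and LIF, and wild type mice given DSS. They are written labelled KO+LIF, labelled KO, WT+LIF and WT, always with DSS. LIF (leukemia inhibitory factor) is a secreted cytokine related to interleukin-6, and Stat4 is a transcription factor of cytokine signalling. The title of the study frames the question as whether LIF, acting through STAT4, changes intestinal inflammation. Each group had 1 array and 5 mice, and pooling of the mice, their age and the extent of the deletion are not stated in the labels. With 1 array a group there was no replicate check, so no difference below carries a p-value.

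Simple epithelium seals the gut through tight junctions, in which claudins and occludin are tied to actin by scaffold proteins of the Tjp family and cingulin. Adherens junctions built on E-cadherin and desmosomes anchored to keratins give it strength, and hemidesmosome integrins hold it to the basement membrane. Factors of the Cdx, Hnf4 and ETS families keep intestinal cells in their epithelial state. Resting lymphocytes make little of most of these proteins, although Itga6 and F11r are also known on platelets and leukocytes.

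Levels are log2 of the processed signal minus the 75th percentile of the array, so a level of 0 equals that percentile. A level sets a probe against its own array, and levels are compared only between arrays of the same probe. The error beside a difference is the scanner software's estimate for both spots and leaves out the spread between mice. Differences of at least 1 on the log2 scale, or 2-fold, were counted. A gene counted as measured in a comparison where both arrays had its brightest probe well above background.

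The WT+LIF array stood apart. Its 75th percentile of signal was 23.8, against 43.3 in labelled KO+LIF, 45.3 in labelled KO and 122.9 in WT. It had 37.6% of probes well above background, against 45.7% in labelled KO+LIF, 44.9% in labelled KO and 61.7% in WT. Its correlation with each of the others was 0.800 to 0.818 over 12674 probes, while the other 3 correlated with each other at 0.951 to 0.980. Labelled KO+LIF belonged to scan 2, WT+LIF to scan 3 and both arrays without LIF to scan 1. The scan therefore cannot be told apart from LIF in either genotype, nor from genotype between the arrays with LIF. The Stat4 probe did not separate the genotypes: its level was −0.48 in labelled KO+LIF, 0.31 in labelled KO, 0.21 in WT+LIF and −0.49 in WT. Genotype directions below therefore rest on the labels, which is why the name labelled KO is used. It is not known here whether the probe lies in the deleted part.

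Of 13 leukocyte markers, 11 were well above background in labelled KO+LIF, 12 in labelled KO, 10 in WT+LIF and 13 in WT. Of all 20619 named genes, 10869 were so in labelled KO+LIF, 10698 in labelled KO, 9354 in WT+LIF and 14030 in WT. Such counts do not show how much of the RNA came from leukocytes. The epithelial genes were on the same arrays as well. Of the 38, 34 were well above background in labelled KO+LIF, 34 in labelled KO, 30 in WT+LIF and all 38 in WT, and 29 were so on all 4 arrays. Goblet cell markers (7 of 7) and Paneth cell markers (6 of 6) were above background on every array, and mesothelial markers on none except 1 of 5 in WT. In such mixed RNA, fewer epithelial cells and less RNA per epithelial cell cannot be told apart.

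**Figure D1:**
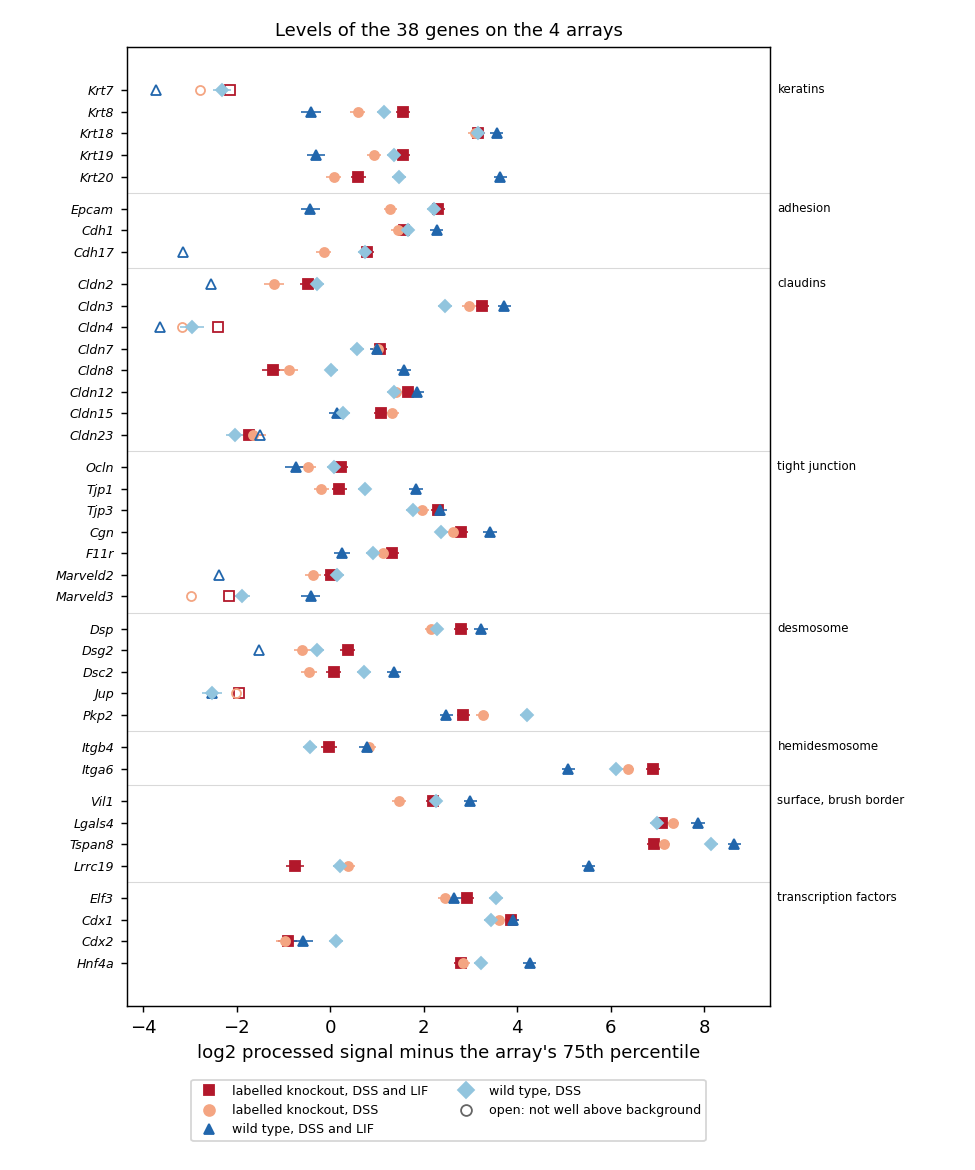
Level of each of the 38 genes on each array (x axis, log2 processed signal minus the 75th percentile of the array), by role, with bars for the scanner's error estimate and open symbols where the probe was not well above background. Krt18 and Cdx1 lie close together on the 4 arrays, while Lrrc19, Krt20 and Epcam have the WT+LIF array far from the others.

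Over the 29 genes on all 4 arrays, the range from the lowest to the highest array had a median of 1.25, against 1.29 over all 8045 such genes. Without the WT+LIF array it was 0.79, against 0.63 over all genes, and 62.1% of the epithelial genes then had a range under 1, against 76.9% of all genes. The largest ranges were those of Lrrc19 (6.29), Krt20 (3.56), Cldn8 (2.79), Epcam (2.73), Tjp1 (2.02) and Krt8 (1.97). In each of these 6 the WT+LIF array held one of the extremes. It was highest for Lrrc19, Krt20, Cldn8 and Tjp1, and lowest for Epcam and Krt8.

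Transcription factors of the set itself (Cdx1, Cdx2 and Elf3) bind DNA of known letters, and these widest-ranging genes moved in opposite directions on the same array. Their promoters are therefore shown, except that of Cldn8, for which no entry was found. Each is the 300 bases from 250 before to 50 after the start in RefSeq, build GRCm38.p6, given 5′ to 3′ on the strand of the gene. Capitals mark the Cdx motif ATAAA or its reverse complement TTTAT, and the ETS motif GGAAGT or its reverse complement ACTTCC. In Krt8 one ATAAA and one TTTAT overlap.
Lrrc19, chr4:94650095-94650394, minus strand: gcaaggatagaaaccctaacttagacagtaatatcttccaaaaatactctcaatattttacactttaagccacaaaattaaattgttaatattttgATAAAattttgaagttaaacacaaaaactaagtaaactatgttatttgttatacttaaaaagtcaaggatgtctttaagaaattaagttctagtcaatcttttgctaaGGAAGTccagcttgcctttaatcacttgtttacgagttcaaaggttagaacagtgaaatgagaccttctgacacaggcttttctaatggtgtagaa
Krt20, chr11:99438104-99438403, minus strand: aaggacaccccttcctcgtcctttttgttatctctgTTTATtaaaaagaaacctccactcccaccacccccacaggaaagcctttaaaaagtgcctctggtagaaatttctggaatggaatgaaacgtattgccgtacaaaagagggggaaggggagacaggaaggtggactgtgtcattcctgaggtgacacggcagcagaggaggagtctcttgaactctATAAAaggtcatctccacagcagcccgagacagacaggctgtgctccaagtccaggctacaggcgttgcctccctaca
Epcam, chr17:87635729-87636028, plus strand: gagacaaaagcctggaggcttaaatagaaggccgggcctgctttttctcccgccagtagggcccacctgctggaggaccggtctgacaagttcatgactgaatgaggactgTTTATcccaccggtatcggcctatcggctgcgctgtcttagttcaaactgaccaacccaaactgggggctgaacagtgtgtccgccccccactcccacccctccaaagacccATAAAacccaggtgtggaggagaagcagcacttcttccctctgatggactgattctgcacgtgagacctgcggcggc
Tjp1, chr7:65371195-65371494, minus strand: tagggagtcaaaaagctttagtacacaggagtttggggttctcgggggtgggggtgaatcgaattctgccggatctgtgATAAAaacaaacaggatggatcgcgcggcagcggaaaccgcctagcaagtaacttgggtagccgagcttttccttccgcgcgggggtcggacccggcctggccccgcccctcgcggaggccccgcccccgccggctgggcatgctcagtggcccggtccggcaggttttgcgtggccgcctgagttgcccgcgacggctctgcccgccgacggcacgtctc
Krt8, chr15:102004293-102004592, minus strand: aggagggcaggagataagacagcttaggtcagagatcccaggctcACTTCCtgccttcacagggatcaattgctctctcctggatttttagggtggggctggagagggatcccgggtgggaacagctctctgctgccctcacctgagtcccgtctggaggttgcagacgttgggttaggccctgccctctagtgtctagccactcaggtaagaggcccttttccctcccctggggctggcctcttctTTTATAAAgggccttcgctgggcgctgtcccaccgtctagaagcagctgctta
The Cdx letters occurred in all 5 promoters shown, and the ETS letters in Lrrc19 and Krt8. ATAAA is also part of the TATA box letters TATAAA, which Krt20 and Krt8 contain. Among 32851 promoters of this length, 40.0% held the Cdx letters, against 39.4% of the 33 promoters found for 26 of the 38 genes. The ETS letters were in 30.3% of those 33 and in 23.8% of all promoters. A longer Hnf4 motif, CAAAGNNCA or TGNNCTTTG, was in 3.03% of the 33, that of Tjp3, and in 6.36% of all. Motif letters thus occurred in high and low genes alike, and a match describes the sequence only.

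In labelled knockout mice, few epithelial genes differed 2-fold with LIF. Of the 34 genes measured, 1 was at least 2-fold higher in labelled KO+LIF and 1 at least 2-fold lower, against 3.21% and 3.08% of all 9783 genes measured. Epcam, an adhesion glycoprotein of epithelial cells, was the one that was higher, and Lrrc19, a leucine-rich repeat membrane protein of kidney and intestine, the one that was lower. The sign was positive for 25 of the 34 and negative for 9, and it was positive for 4800 of all 9783 genes. The median of the 34 was 0.28, against −0.01 over all genes. Relative to the median of all genes the same Epcam and Lrrc19 were past 2-fold, against 3.32% of all genes higher and 2.99% lower, so the counts lay near the background. With normexp background correction the median was −0.19.

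Pancreatic acinar markers, which belong to another tissue, differed more between the same arrays. Of the 8 measured, 6 were at least 2-fold higher in labelled KO+LIF and 1 lower, against 3.21% and 3.08% of all genes. The median of these markers was 1.62. Their summed level relative to the 75th percentile was 474 in labelled KO+LIF, with 10 of 10 above background, and 166 in labelled KO, with 8 of 10. Stromal markers had a median of −0.65 over 8 genes and leukocyte markers −0.01 over 11. Their part in the epithelial differences was not tested.

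In wild type mice, LIF went with differences of many genes on the array, and the counts of epithelial genes lay near that background. Of the 30 genes measured, 9 were at least 2-fold higher in WT+LIF and 5 lower, against 34.5% and 13.6% of all 8963 genes. Krt20, Cldn3, Cldn8, Tjp1, Cgn, Marveld3, Itgb4, Lrrc19 and Hnf4a were higher, and Krt8, Krt19, Epcam, Pkp2 and Itga6 lower. The median was 0.54, against 0.57 over all genes. Taken relative to that median of all genes, 2 were higher (Krt20 and Lrrc19) and 9 lower (the same 5 with F11r, Elf3, Cdx2 and the brighter probe of Ocln), against 18.2% and 22.0% of all genes. With normexp background correction the median was −0.23 and 1 of the 9 higher genes stayed past 2-fold, Lrrc19 at 3.63. Krt20 at 0.94, Marveld3 at 0.86, Cldn8 at 0.55, Itgb4 at 0.50, Tjp1 at 0.26 and Cldn3 at 0.06 were then below the threshold, and Cgn at −0.12 and Hnf4a at −0.17 had the opposite sign. Before scaling, all of the 9 except Lrrc19 had a lower processed signal in WT+LIF than in WT, for example 314 and 674 for Cldn3 and 456 and 1144 for Hnf4a, so their direction rests on the scaling.

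Another 8 genes were above background in WT and dim in WT+LIF, which gives only a bound. For 4 of these the bound passed 2-fold lower and for 0 of them 2-fold higher, against 11.0% and 4.91% of the 5154 genes with a bound in this comparison. Cdh17 was at least 4.72-fold lower in WT+LIF, Marveld2 at least 3.12-fold, Cldn2 at least 2.32-fold and Dsg2 at least 2.31-fold. The bound sets the bright value against the array's lowest signal well above background or the dim probe's own signal, whichever is higher.

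Relative to each array's 75th percentile, markers of several other cell types had higher summed levels in WT+LIF. That percentile was 23.8 in WT+LIF and 122.9 in WT, so these higher sums rest on the scaling. Goblet cell markers had a summed level of 505, against 214 in WT. At least 2-fold higher were 4 of 7, against 34.5% of all genes. Paneth cell markers had 432 in WT+LIF and 136 in WT, colonocyte markers 47.9 in WT+LIF and 19.3 in WT, and leukocyte markers 61.6 in WT+LIF and 24.4 in WT. Pancreatic acinar markers had 60.3 in WT+LIF and 137 in WT. Their part in the differences of the epithelial set was not tested.

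**Figure D2:**
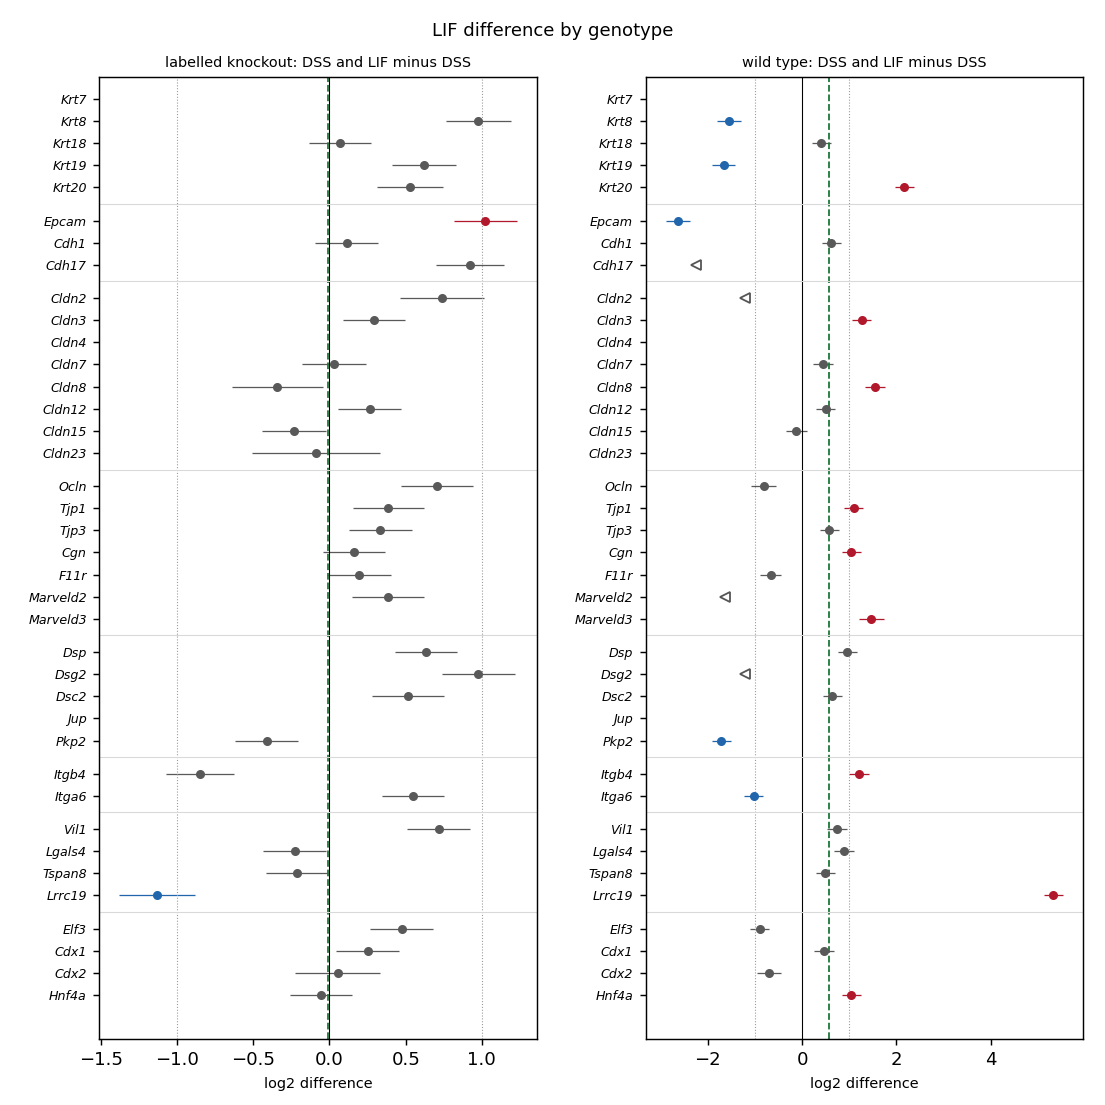
Difference with LIF for each gene (x axis, log2, DSS and LIF minus DSS), in labelled knockout on the left and in wild type on the right, where the x axes have different scales. Bars are the scanner's error estimate, red and blue mark at least 2-fold higher and lower, open triangles mark bounds, the dashed line is the median of all genes measured and dotted lines mark 2-fold. Epcam, Krt8 and Krt19 lie to the right of 0 in labelled knockout and to the left in wild type, and Lrrc19 lies the opposite way.

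Keratins are the intermediate filaments of epithelium, assembled from type I and type II partners. Krt8, a type II keratin, had levels of 1.56 in labelled KO+LIF, 0.59 in labelled KO, −0.40 in WT+LIF and 1.15 in WT. With LIF it differed by 0.98 ± 0.21 in labelled knockout and by −1.56 ± 0.26 in wild type (scanner error), the second of these being 2.94-fold lower with LIF. Krt18, the type I partner of Krt8 and its neighbour on the chromosome, had 3.16 in labelled KO+LIF, 3.09 in labelled KO, 3.56 in WT+LIF and 3.15 in WT. Its range without the WT+LIF array was 0.07, within the scanner error of 0.20. After scaling, Krt18 was highest on the WT+LIF array, where Krt8 was lowest. Before scaling, the processed signal of Krt18 was 280 in WT+LIF and 1091 in WT. Relative to the median of all genes, its difference with LIF in wild type was −0.16.

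Krt19, a type I keratin of simple epithelium, had 1.56 in labelled KO+LIF, 0.93 in labelled KO, −0.30 in WT+LIF and 1.36 in WT. As for Krt8, labelled KO+LIF was highest and WT+LIF lowest. The difference of Krt19 with LIF was 0.62 ± 0.21 in labelled knockout and −1.66 ± 0.24 in wild type, 3.17-fold lower with LIF. Krt20, a keratin of differentiated surface cells, had 0.60 in labelled KO+LIF, 0.07 in labelled KO, 3.64 in WT+LIF and 1.47 in WT and ran the other way, with WT+LIF on top. Its difference with LIF was 0.53 ± 0.22 in labelled knockout and 2.16 ± 0.20 in wild type, or 4.48-fold higher, and 1.59 relative to the median of all genes. Before scaling, its processed signal was 296 in WT+LIF and 341 in WT. Krt7, a keratin of ducts, was well above background only in WT, at −2.31.

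Among the adhesion molecules, Epcam had levels of 2.31 in labelled KO+LIF, 1.29 in labelled KO, −0.42 in WT+LIF and 2.22 in WT. It differed with LIF by 1.02 ± 0.21 in labelled knockout, 2.03-fold higher, and by −2.64 ± 0.25 in wild type, 6.23-fold lower. Labelled KO+LIF and WT were level within the scanner error. Cdh17, the liver-intestine cadherin, had 0.78 in labelled KO+LIF, −0.14 in labelled KO and 0.75 in WT, and was dim in WT+LIF. It thus followed the order of Epcam. Cdh1, E-cadherin, did not, with 1.57 in labelled KO+LIF, 1.45 in labelled KO, 2.28 in WT+LIF and 1.66 in WT.

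The claudins, membrane proteins that set which ions pass between cells, lay on both sides. Cldn2, which forms a pore for cations and water, had −0.47 in labelled KO+LIF, −1.20 in labelled KO and −0.28 in WT, and was dim in WT+LIF. Cldn8, a sealing claudin of the distal colon, had −1.22 in labelled KO+LIF, −0.88 in labelled KO, 1.57 in WT+LIF and 0.03 in WT. The pore-forming member was thus dim on the array where the sealing one was highest after scaling. Cldn8 differed with LIF by −0.34 ± 0.30 in labelled knockout and by 1.54 ± 0.21, or 2.91-fold higher, in wild type. Relative to the median of all genes, its wild type difference was 0.97. Before scaling, its processed signal was lower in WT+LIF, at 70.5, than in WT, at 125.

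Cldn3, another sealing claudin, had 3.25 in labelled KO+LIF, 2.96 in labelled KO, 3.72 in WT+LIF and 2.46 in WT and was 2.41-fold higher with LIF in wild type, or 0.70 on the log2 scale relative to the median of all genes. Cldn15, a sodium pore of the intestine, had 1.08 in labelled KO+LIF, 1.32 in labelled KO, 0.15 in WT+LIF and 0.27 in WT, higher on both labelled knockout arrays than on both wild type arrays. Cldn7, which pairs with Epcam, had 1.06 in labelled KO+LIF, 1.03 in labelled KO, 1.01 in WT+LIF and 0.57 in WT, and Cldn12 had 1.67 in labelled KO+LIF, 1.41 in labelled KO, 1.85 in WT+LIF and 1.36 in WT. Neither of these 2 claudins varied by as much as 1 across the arrays, and Cldn7 did not follow Epcam. Cldn23 was near background, between −2.04 and −1.49, and Cldn4, whose gene neighbours Cldn3, was well above background only in WT.

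Of the other tight junction genes, all 6 measured had a positive difference with LIF in labelled knockout, as had 4800 of all 9783 genes. They ran from 0.16 for Cgn to 0.71 for the brighter probe of Ocln, whose second probe had −0.05. Cgn and F11r (0.20) lay within the scanner errors of 0.205 and 0.209. The median of the 6 was 0.36, and 0 of the 6 passed 2-fold. Tjp1, the scaffold that ties claudins to actin, had levels of 0.20 in labelled KO+LIF, −0.19 in labelled KO, 1.83 in WT+LIF and 0.74 in WT. Both wild type arrays were above both labelled knockout arrays. Tjp3, a related scaffold, had 2.30 in labelled KO+LIF, 1.96 in labelled KO, 2.34 in WT+LIF and 1.76 in WT, and Cgn, cingulin, had 2.79 in labelled KO+LIF, 2.63 in labelled KO, 3.42 in WT+LIF and 2.37 in WT, so that the LIF array was the higher of the pair in each genotype. Relative to the median of all genes, the differences of Tjp1, Cgn and Tjp3 with LIF in wild type were 0.52, 0.47 and 0.01.

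F11r, the junctional adhesion molecule A, had 1.33 in labelled KO+LIF, 1.13 in labelled KO, 0.25 in WT+LIF and 0.91 in WT, and was lowest in WT+LIF. Marveld2, tricellulin of 3-cell contacts, had 0.02 in labelled KO+LIF, −0.36 in labelled KO and 0.15 in WT and was dim in WT+LIF. Its relative Marveld3 was dim on both labelled knockout arrays and had −0.41 in WT+LIF and −1.88 in WT by its brighter probe, 2.76-fold higher with LIF. Its second probe had −2.40 in WT and was dim in WT+LIF, at −2.56. Ocln, occludin, whose gene neighbours Marveld2, had 0.23 in labelled KO+LIF, −0.48 in labelled KO, −0.74 in WT+LIF and 0.08 in WT by its brighter probe, and its other probe gave another order.

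Desmosomes couple keratins of adjoining cells. Dsp, desmoplakin, which binds keratin, was read by 10 spots and had levels of 2.80 in labelled KO+LIF, 2.16 in labelled KO, 3.23 in WT+LIF and 2.27 in WT, with an SD over spots of at most 0.04. By this brighter probe it was higher with LIF by 0.63 in labelled knockout and 0.96 in wild type, while its second probe had −0.02 in WT and was dim in WT+LIF, at −1.60, so no direction is given for wild type. Dsc2, a desmosomal cadherin, had 0.07 in labelled KO+LIF, −0.44 in labelled KO, 1.37 in WT+LIF and 0.72 in WT. After scaling it was higher with LIF in both genotypes. Relative to the median of all genes, Dsc2 differed by 0.07 in wild type, and its processed signal was 61.3 in WT+LIF and 203 in WT. Its partner cadherin Dsg2 had 0.38 in labelled KO+LIF, −0.60 in labelled KO and −0.29 in WT, and was dim in WT+LIF, where Dsc2 was highest. Pkp2, plakophilin 2, had 2.85 in labelled KO+LIF, 3.26 in labelled KO, 2.48 in WT+LIF and 4.20 in WT and was lower with LIF in both genotypes, at −0.41 in labelled knockout and −1.71 in wild type. Jup, plakoglobin, was near background, well above it only in WT at −2.53.

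Itga6 and Itgb4 pair as the laminin receptor of hemidesmosomes, and their levels differed in opposite directions. Itga6 had levels of 6.91 in labelled KO+LIF, 6.36 in labelled KO, 5.10 in WT+LIF and 6.12 in WT. Its difference with LIF was 0.55 ± 0.20 in labelled knockout and −1.02 ± 0.20 in wild type. Itgb4 had −0.02 in labelled KO+LIF, 0.82 in labelled KO, 0.78 in WT+LIF and −0.43 in WT, and its difference was −0.85 ± 0.22 in labelled knockout and 1.21 ± 0.22 in wild type. After scaling, one partner was higher with LIF and the other lower in each genotype. In wild type this rests on the scaling. The processed signal of Itgb4 was 40.8 in WT+LIF and 91.2 in WT, and that of Itga6 was 813 and 8542. Relative to the median of all genes, the wild type difference of Itgb4 was 0.64. Of 5 platelet markers, for cells that carry Itga6, 2 were above background in labelled KO+LIF, 3 in labelled KO, 2 in WT+LIF and 4 in WT. Their summed level was 6.74 in labelled KO+LIF, 11.7 in labelled KO, 4.29 in WT+LIF and 10.1 in WT, and their part was not tested.

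Among the surface genes, Lrrc19 had levels of −0.76 in labelled KO+LIF, 0.37 in labelled KO, 5.53 in WT+LIF and 0.20 in WT. It differed with LIF by −1.13 ± 0.25 in labelled knockout, 2.19-fold lower, and by 5.33 ± 0.21 in wild type, 40.2-fold higher. Unlike that of Krt20, its signal before scaling was also higher in WT+LIF, at 1098, against 141 in WT. One array alone carried this value, through 1 spot of a single probe. Vil1, villin of the microvillus core, had 2.19 in labelled KO+LIF, 1.48 in labelled KO, 3.00 in WT+LIF and 2.25 in WT. After scaling it was higher with LIF in both genotypes, by 0.72 in labelled knockout and 0.74 in wild type. Relative to the median of all genes the wild type difference was 0.17, and the processed signal was 190 in WT+LIF and 586 in WT. Lgals4, galectin-4, had 7.09 in labelled KO+LIF, 7.32 in labelled KO, 7.87 in WT+LIF and 6.98 in WT, and Tspan8, a tetraspanin, had 6.92 in labelled KO+LIF, 7.13 in labelled KO, 8.64 in WT+LIF and 8.15 in WT, both with WT+LIF on top. Relative to the median of all genes, their differences with LIF in wild type were 0.32 for Lgals4 and −0.08 for Tspan8.

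Among the transcription factors, Hnf4a, a nuclear receptor of intestinal and liver epithelium, had levels of 2.79 in labelled KO+LIF, 2.85 in labelled KO, 4.26 in WT+LIF and 3.22 in WT. Its difference with LIF was −0.05 ± 0.21 in labelled knockout and 1.04 ± 0.20 in wild type, or 0.47 relative to the median of all genes. Cdx1, which patterns the intestine, had 3.87 in labelled KO+LIF, 3.62 in labelled KO, 3.90 in WT+LIF and 3.44 in WT, within 0.50 across the arrays. Cdx2, its relative and a regulator of intestinal identity, had −0.91 in labelled KO+LIF, −0.96 in labelled KO, −0.58 in WT+LIF and 0.12 in WT, highest in WT. Elf3, an epithelial ETS factor, had 2.93 in labelled KO+LIF, 2.46 in labelled KO, 2.65 in WT+LIF and 3.55 in WT, also highest in WT.

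Between the arrays without LIF, which belonged to the same scan, the labelled knockout had more epithelial genes lower than higher. Of the 34 measured, 5 were at least 2-fold lower in labelled KO (Krt20, Dsc2, Tspan8, Elf3 and Cdx2) and 2 higher (Cldn15 and Itgb4). Among all 10500 genes measured, 6.81% were lower and 13.2% higher. The sign was negative for 21 of 34, and for 4781 of all 10500 genes. The median was −0.34, against a median of 0.08 over all genes. Relative to that median of all genes, 9 were lower (the 5 with Epcam, Cldn2, Tjp1 and Pkp2) and 1 higher (Itgb4), against 8.31% and 11.9% of all genes. By the authors' deposited values 9 were lower, against 861 of all 10500 genes. With normexp background correction none of the set were higher. Over probes above background on all 4 arrays the median was smaller in size. Krt7, Cldn4, Jup and Marveld3, dim in labelled KO, gave 0 bounds past 2-fold in either direction, against 5.53% lower and 4.05% higher of the 3583 genes with a bound.

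By role, all 4 keratins measured, all 3 adhesion molecules and all 4 desmosome genes had negative differences under DSS. Among all 10500 genes, 4781 had a negative difference. Medians were −0.50 for keratins, −0.89 for adhesion molecules and −0.63 for desmosome genes. Of 8 keratins outside the set, 7 had a positive difference and 1 a negative one, with a median of 0.96. Krt20 differed by −1.40 ± 0.21, or 2.64-fold lower in labelled KO. Elf3 differed by −1.09 ± 0.20 and Cdx2 by −1.08 ± 0.24, 2.13-fold and 2.12-fold lower. Claudins were mixed, with 5 of 7 positive, and Itgb4 was 2.38-fold higher. Krt18 and Cdh1 differed by −0.06 ± 0.20 and −0.20 ± 0.21, and Dsp by −0.11 ± 0.205, each no more than the scanner error.

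Other markers moved between these arrays as well, where 13.2% of all genes were at least 2-fold higher in labelled KO and 6.81% lower. Stromal markers were at least 2-fold higher in labelled KO for 4 of 8 measured, with summed levels of 17.1 there and 5.91 in WT. Goblet cell markers were higher for 4 of 7, with sums of 217 in labelled KO and 214 in WT, and colonocyte markers lower for 2 of 6, with sums of 12.3 in labelled KO and 19.3 in WT. Paneth cell markers were higher for 3 of 6, with a median of 0.91 and sums of 225 in labelled KO and 136 in WT. Pancreatic acinar markers were higher for 4 of 8 and lower for 0, with a median of 0.98 and sums of 166 in labelled KO and 137 in WT. Leukocyte markers had a median of 0.05 over 12 genes. Their part in the epithelial differences was not tested.

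Under DSS and LIF the genotype difference rests on the array that stood apart. The labelled KO+LIF and WT+LIF arrays also belonged to different scans, so genotype and scan cannot be told apart here. Of the 29 genes measured, 5 were at least 2-fold higher in labelled KO+LIF (Krt8, Krt19, Epcam, F11r and Itga6) and 7 lower (Krt20, Cldn8, Tjp1, Dsc2, Tspan8, Lrrc19 and Hnf4a). Among all 8348 genes, 14.1% were higher and 31.3% lower. The median was −0.40, against −0.45 over all genes, so the set lay near the background. Relative to the median of all genes 7 were higher and 6 lower, against 21.6% and 19.0% of all genes.

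Epcam was 6.64-fold higher in labelled KO+LIF than in WT+LIF, Krt8 3.91-fold, Krt19 3.62-fold and Itga6 3.51-fold. Lrrc19 was 78.2-fold lower, Krt20 8.20-fold and Cldn8 6.92-fold. Bounds past 2-fold put 4 of 6 further genes higher (Cdh17 at least 4.84-fold, Dsg2 3.65-fold, Marveld2 2.86-fold and Cldn2 2.04-fold) and Marveld3 at least 3.09-fold lower, against 19.0% and 17.6% of 3218 genes with a bound. Krt20, Dsc2 and Tspan8 passed the 2-fold threshold, lower in labelled knockout, with LIF and without it. Of all genes, 31.3% were lower with LIF and 6.81% without it, and the share lower in both was not counted. Relative to the median of all genes, Dsc2 was at −0.85 with LIF, short of 2-fold. Those comparisons share no array, but each has 1 array a group.

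Markers of other cells differed between the arrays with LIF too, where 14.1% of all genes were at least 2-fold higher in labelled KO+LIF and 31.3% lower. Pancreatic acinar markers were at least 2-fold higher in labelled KO+LIF for 6 of 7 measured, with a median of 3.25 and sums of 474 in labelled KO+LIF and 60.3 in WT+LIF. Colonocyte markers were lower for 4 of 5, with a median of −2.43 and sums of 13.3 in labelled KO+LIF and 47.9 in WT+LIF, and brush border genes were lower for 7 of 11 and higher for 2. Goblet cell markers had sums of 208 in labelled KO+LIF and 505 in WT+LIF, Paneth cell markers 186 in labelled KO+LIF and 432 in WT+LIF, and leukocyte markers 25.5 in labelled KO+LIF and 61.6 in WT+LIF. Their part in the epithelial differences was not tested.

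**Figure D3:**
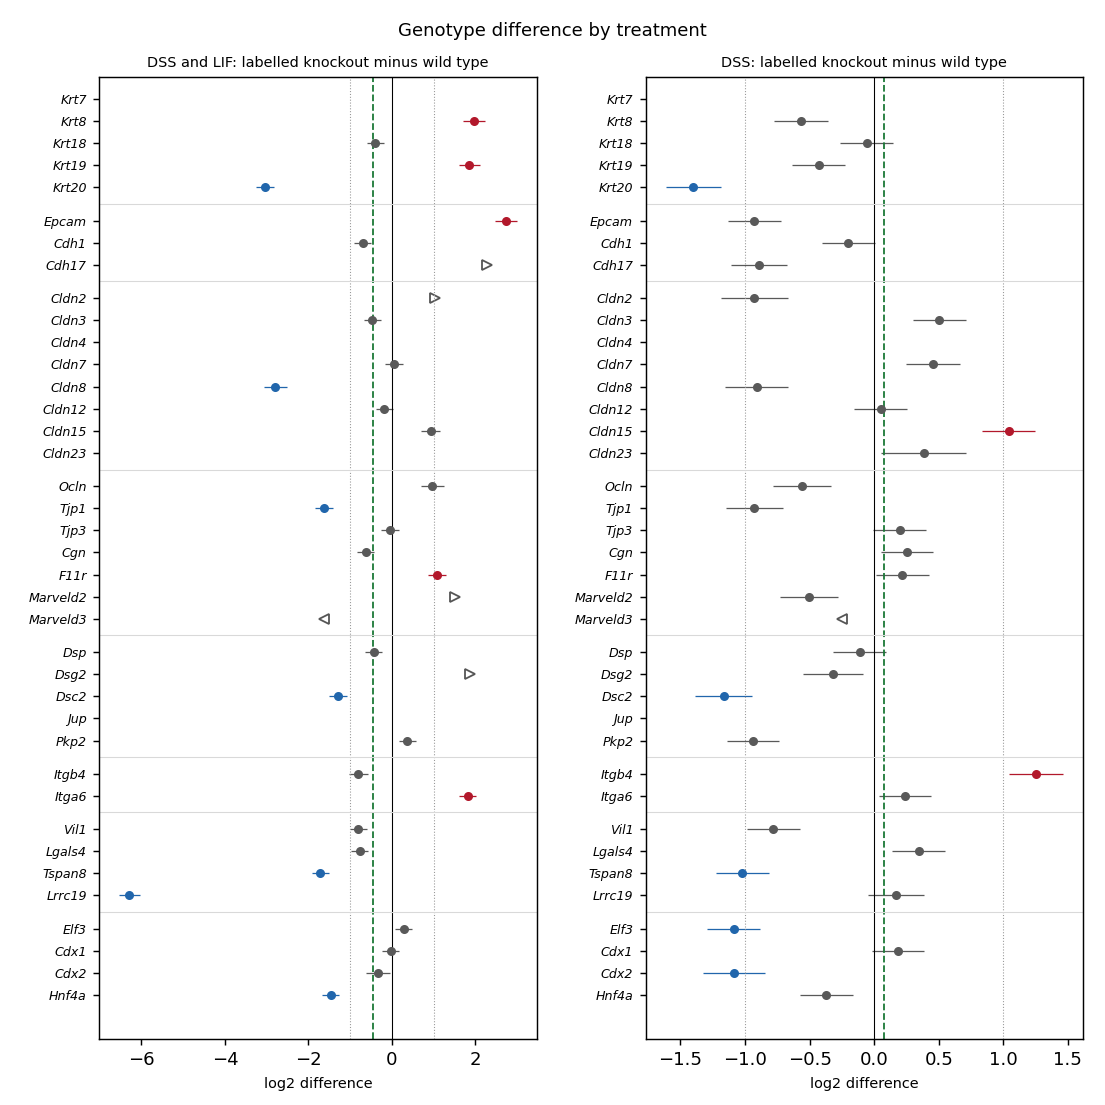
Difference between genotypes for each gene (x axis, log2, labelled knockout minus wild type), under DSS and LIF on the left and under DSS on the right, where the x axes have different scales. Bars are the scanner's error estimate, red and blue mark at least 2-fold higher and lower, open triangles mark bounds, the dashed line is the median of all genes measured and dotted lines mark 2-fold. The measured keratins, adhesion molecules and desmosome genes lie to the left of 0 under DSS, with Krt18, Cdh1 and Dsp within the scanner error. Krt8, Krt19 and Epcam lie to the right under DSS and LIF.

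The LIF difference in labelled knockout and that in wild type had opposite signs for 14 of the 29 genes measured on all 4 arrays, and for 4307 of all 8045 genes. The difference in labelled knockout exceeded that in wild type by at least 1 for 7 of the 29 and fell short of it by at least 1 for 6, against 16.7% and 33.4% of all genes. Across the 29 genes the differences in labelled knockout and in wild type correlated at r = −0.58 (rho = −0.33), and at −0.37 (rho = −0.26) without Lrrc19. Across all 8045 genes r was −0.07. These comparisons share no array, but genes are not independent replicates.

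The shares of genes with their extreme in WT+LIF lay near those of all genes. WT+LIF was highest for 17 of the 29 genes, against 53.6% of all genes, and lowest for 8, against 26.6%. Labelled KO+LIF was highest for 7, against 14.5%, and these were Krt8, Krt19, Epcam, Cldn7, F11r, Itga6 and Ocln by its brighter probe. Of those, all except Cldn7 were lowest in WT+LIF. Labelled KO was lowest for 9, against 21.6%, among them Krt18, Krt20, Cdh1, Dsp, Dsc2, Vil1 and Elf3.

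Genes of the same structures outside the set also differed in both directions in wild type with LIF, on arrays where 34.5% of all genes passed 2-fold upwards and 13.6% downwards. Of 10 other adherens junction and desmosome genes measured, 5 were at least 2-fold higher in WT+LIF and 2 lower. The desmosome plaque gene Pkp3 was the highest at 4.70, with −1.07 in labelled knockout, which are the signs of Lrrc19. Of 11 other tight junction genes 2 were higher, the polarity gene Pard3 at 1.86 and the scaffold Magi1 at 1.68, and 1 lower, the scaffold Patj at −2.45. Cldn19, a claudin named after its values were seen, had a level of 6.62 in WT and was dim in WT+LIF, a bound of −8.11. Of 3 other keratins measured 0 were higher and 1 lower, Krt16 at −7.42. Of 11 brush border genes 7 were higher, led by the actin linker Ezr at 3.14 and the protease Mep1a at 2.94, and 2 lower, the lowest being the microvillus cadherin Cdhr2 at −3.49.

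Of 11 other epithelial regulators measured in wild type, 3 were higher with LIF and 4 lower, with the splicing factor Esrp1 at −5.83 and the transcription factor Gata4 at −2.80. In labelled knockout, 3 of 13 were higher and 1 lower, with Gata4 at 1.58 and Esrp1 at −1.33. Of 6 and 5 laminin and hemidesmosome genes in labelled knockout and wild type, 1 and 2 were higher and 0 and 1 lower. Of 13 other tight junction genes in labelled knockout, where 3.21% of all genes were higher and 3.08% lower, 2 were higher and 0 lower, of 12 adherens and desmosome genes 2 and 1, and of 8 other keratins 0 and 3. Under DSS, where 13.2% of all genes were higher in labelled KO and 6.81% lower, the labelled knockout had 4 of 15 other tight junction genes higher and 1 lower, 0 and 1 of 12 adherens and desmosome genes, and 3 and 0 of 8 other keratins.

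For 7 genes with several probes, the probes could be set against each other within these arrays. Both Cldn2 probes and both Dsg2 probes were dim in WT+LIF and gave the same sign in the other 2 comparisons. The second Ocln probe had levels of −0.48 in labelled KO+LIF, −0.43 in labelled KO, 0.44 in WT+LIF and −0.60 in WT. It disagreed in sign with the brighter probe in all 4 comparisons, so no direction can be given for Ocln. The second Dsp probe was 1.28 higher with LIF in labelled knockout, but dim in WT+LIF, where the brighter probe was highest. The second Marveld3 probe was well above background in WT and dim in WT+LIF, where the brighter probe was highest. The 3 Lgals4 probes gave the same sign in wild type with LIF and between genotypes under DSS and LIF, and different signs in the other 2 comparisons.

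**Figure D4:**
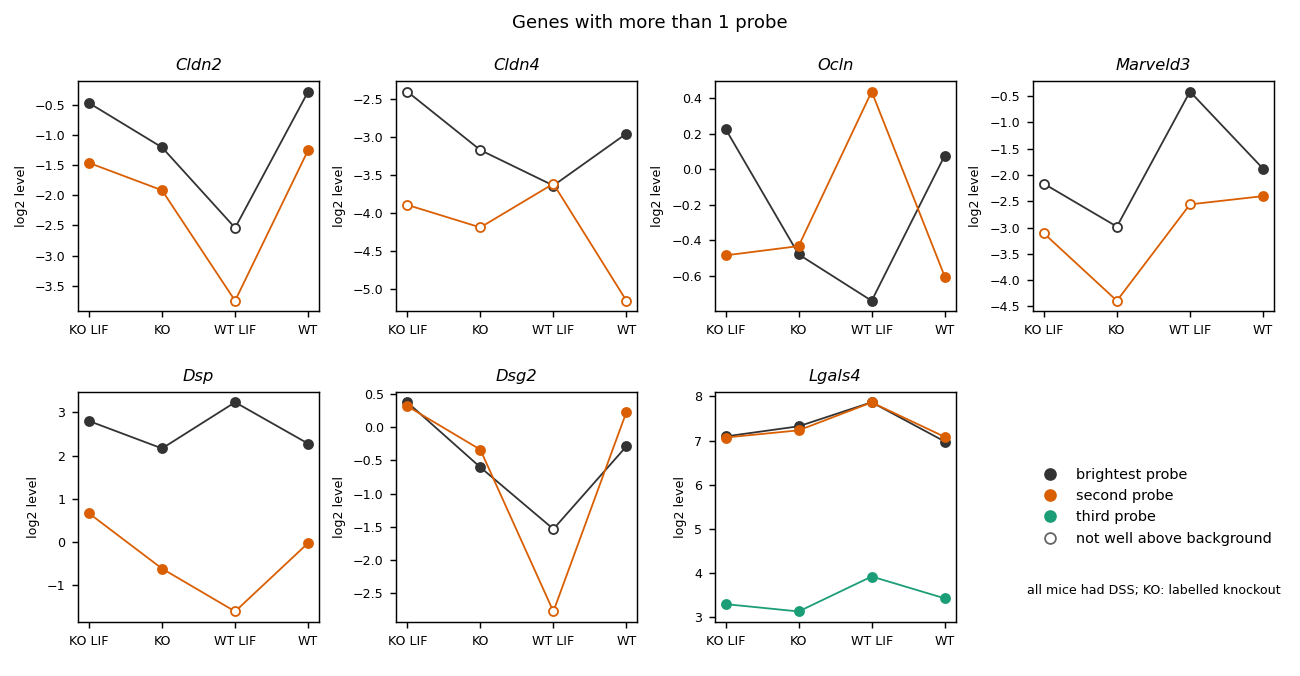
Level of each probe of the 7 genes with several probes (y axis, log2 processed signal minus the 75th percentile of the array) on the 4 arrays, where KO is the labelled knockout and open symbols were not well above background. The Ocln probes cross, the Dsp probes part in WT+LIF, and the Cldn2 and Dsg2 probes run alike.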

How the data were processed

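RNA from the 4 groups was labelled with Cy3 and hybridized to one-colour Agilent mouse arrays. The authors deposited spot intensity values from Agilent Feature Extraction, named as 11.0.1.1 per the file headers but as 9.1 in the submitters' processing notes, and the processed signal is the intensity after that software's background subtraction. They also deposited a table of log2 values, which correlated with the scanner's log2 signal at r of 0.971 to 0.992. The sources used here do not give how that table was normalized. Its column medians were 3.31 in labelled KO+LIF, 3.31 in labelled KO, 2.54 in WT+LIF and 3.31 in WT. Between 27.0% and 51.15% of the values in a column sat at its lowest value.

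Control spots and outlier-flagged spots (164 to 241 an array) were left out, and no spot was saturated. Spots of a probe were averaged, and log2 intensity was scaled by subtracting the array's 75th percentile. Well above background means that 50% or more of the spots of a probe carried that mark. A gene was read by its brightest probe over the 4 arrays. Accessions named 27234 probes (69.1%) through RefSeq. Coordinates are those of the promoter sequences in GRCm38.p6, while the array design names mm9. All 38 genes were accounted for by name, names from other lists were drawn from their 3 highest and 3 lowest measured genes, and promoters were chosen by the largest range over arrays. The gene set and lists were chosen with earlier results of these data known. Differences between spots of replicated probes had a median SD of 0.105 to 0.122, which leaves out the spread between mice, and the number of arrays limits the precision. Alternatives were normexp background correction (limma 3.58.1 in R 4.3.3, offset 50), quantile and median scaling, 2 filters on dim probes, the mean over probes and the deposited table, with 2 more chosen after seeing the data: centring on the median of all genes, and choosing probes without the WT+LIF array. Counting of 2-fold differences was tested on simulated data with large planted differences and every probe set as detected. That test covers the counting only, not dim signal, bounds or scaling. Computations used Python 3.11.15, numpy 2.4.6 and pandas 2.3.3.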

Additional observations from a re-analysis of the deposited data

Results flagged for a closer look

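For 6 genes the LIF difference had opposite signs in labelled knockout and wild type, with at least 1 on the log2 scale in one genotype and at least 0.5 in the other. Opposite signs alone occurred for 14 of the 29 genes of the set on all 4 arrays and for 4307 of all 8045 genes. How many of all genes met the full rule was not counted, so the 6 are not set apart from the background. The LIF difference in labelled knockout minus that in wild type was 3.66 for Epcam (1.02 against −2.64), 2.53 for Krt8 (0.98 against −1.56), 2.29 for Krt19 (0.62 against −1.66) and 1.57 for Itga6 (0.55 against −1.02). It was −6.46 for Lrrc19 (−1.13 against 5.33) and −2.05 for Itgb4 (−0.85 against 1.21). The list depends on the scaling. Relative to the median of all genes, Itgb4 was at −0.84 and 0.64, short of the rule. The brighter probe of Ocln, at 0.72 and −1.39, would then meet it. With 1 array a group, none of these differences between genotypes was tested, and each rests on the WT+LIF array.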

How the results depend on the processing

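No paired analysis was possible because each group had 1 array. Of 35 differences past 2-fold, 33 kept their direction under normexp and 14 stayed past 2-fold. Under quantile, median-scaling, deposited-table and centring alternatives all 35 kept their direction and 26 or more stayed past 2-fold. Under the filter and probe-mean alternatives all 34 or 35 stayed, but this outcome was fixed. The filters reuse the same values, and each of these differences had a single measured probe. With probes chosen without the WT+LIF array, 9 of the 9 that do not use it stayed, which was also fixed because these genes had a single probe. With normexp the median was −0.19 for LIF in labelled knockout and −0.23 for LIF in wild type, where Cgn (−0.12) and Hnf4a (−0.17) turned negative. Its counts were 0 higher and 3 lower for LIF in labelled knockout, 1 higher for LIF in wild type, and 0 and 2 higher between genotypes under DSS and under DSS and LIF. With the authors' deposited values 3 were higher for LIF in labelled knockout, 9 lower between genotypes under DSS, and the median for LIF in wild type was 0.42. That median was 0.41 with quantile scaling and 0.40 with median scaling, which gave −0.26 between genotypes under DSS and LIF. Without a background filter 10 were lower for LIF in wild type, and 11 higher with a median of −0.11 between genotypes under DSS and LIF. Over probes above background on all 4 arrays, the median between genotypes under DSS was −0.20. Centring on the median of all genes gave 2 higher, 9 lower and a median of −0.033 for LIF in wild type, 1 higher and 9 lower under DSS, and a median of 0.049 under DSS and LIF. The cause of these changes was not tested. Dim signal limits Krt7, Cldn4 and Jup, which allow no fold in any comparison.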
